A study of Mus musculus with 12 samples.

Results

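The membrane-bound mucins Muc1, Muc4, Muc13 and Muc20 were followed in the proximal colon of mice that lack the long non-coding RNA EPR in the colonic epithelium. Their rows were taken by gene symbol from a count table of 55376 genes, and all 4 were found. A membrane mucin is anchored in the apical plasma membrane by a transmembrane segment. Its long extracellular part is rich in serine, threonine and proline and is covered with O-glycans. On colonocytes these proteins build the glycocalyx, the glycan coat beneath the secreted mucus, and their short cytoplasmic tails take part in signalling. Gel-forming mucins such as Muc2, in contrast, are secreted by goblet cells and form the mucus layer itself.

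RNA-Seq was performed on proximal colon from 12 mice aged 12 weeks, with 1 library per mouse. The 6 EPR fl/fl mice carry EPR alleles flanked by loxP sites and no Cre, and served as controls. The 6 EPR cKO mice carry the same alleles plus the CDX2P-NLS Cre transgene, in which human CDX2 regulatory sequence drives Cre in epithelial cells from the end of the ileum through the cecum and colon, so that the EPR promoter and first exon are removed there. The tissue was homogenised whole, so each library mixes epithelium with muscle, connective tissue, vessels, nerves and immune cells, and fewer cells of a type cannot be told apart from less RNA per cell. Total counts ran from 13093904 to 33211041 per library.

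EPR, listed as Smim31, had 297 to 1474 counts in the EPR fl/fl libraries and 0 to 10 in the EPR cKO libraries (log2 fold change −8.09, SE 0.47, adjusted p = 1.62e-06). One library stood apart from the rest. EPR cKO 1 had a mean log2 CPM (counts scaled to a common library size) of 9.39 over 8 smooth muscle genes, while the remaining 5 knockout libraries were at 6.32 to 7.72 and the controls at 7.86 to 8.65. In all, 392 of 15952 tested genes differed at an adjusted p under 0.05, 251 lower (1.57%) and 141 higher (0.884%) in EPR cKO. Without EPR cKO 1 these counts were 2273 and 1178. The split leaned further to lower calls with total counts in place of TMM scaling (247 lower, 39 higher) and with scaling to epithelium markers (348 lower, 12 higher).

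The mucin domains are visible in the coding sequences, where codons for serine and threonine are frequent and, in 3 of the 4 genes, recur in tandem repeats. Pairs of neighbouring repeat copies are shown for Muc13, Muc4 and Muc1. For Muc20 no repeat was found at the spacing searched, and the most alike pair of neighbouring stretches at that spacing is shown. Sequences run 5′ to 3′ on the coding strand of the mouse GRCm38 genome. Serine and threonine codons, the possible O-glycan acceptors, are in capitals. The sequences were read from 1 GENCODE transcript per gene.

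Muc13, copy at chr16:33799001-33799081, plus strand, exon 3: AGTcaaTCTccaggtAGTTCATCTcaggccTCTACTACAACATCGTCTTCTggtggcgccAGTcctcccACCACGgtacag
Muc13, next copy at chr16:33799082-33799162: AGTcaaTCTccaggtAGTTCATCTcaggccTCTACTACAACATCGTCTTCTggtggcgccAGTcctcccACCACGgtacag
Muc4, stretch at chr16:32752104-32752223, plus strand, exon 2: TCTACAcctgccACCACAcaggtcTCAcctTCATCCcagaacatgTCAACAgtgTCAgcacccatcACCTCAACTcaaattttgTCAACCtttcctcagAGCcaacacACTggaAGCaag
Muc4, same stretch of the next copy at chr16:32752476-32752595: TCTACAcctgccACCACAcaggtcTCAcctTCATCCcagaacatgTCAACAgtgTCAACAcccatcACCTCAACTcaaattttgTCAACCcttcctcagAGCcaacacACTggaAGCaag
Muc1, copy at chr3:89230015-89230074, plus strand, exon 2: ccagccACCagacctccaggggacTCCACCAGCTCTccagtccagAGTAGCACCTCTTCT
Muc1, next copy at chr3:89230075-89230134: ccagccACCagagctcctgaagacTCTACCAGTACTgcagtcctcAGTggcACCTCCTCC
Muc20, stretch at chr16:32794604-32794675, minus strand, exon 2: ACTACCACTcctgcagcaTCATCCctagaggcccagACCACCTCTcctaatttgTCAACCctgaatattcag
Muc20, next stretch at chr16:32794532-32794603: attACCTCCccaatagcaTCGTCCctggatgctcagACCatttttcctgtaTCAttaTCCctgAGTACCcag

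Repeat units differed in length and in how alike neighbouring copies were. The Muc13 unit was 81 bases long and the copies shown were identical (100%). The Muc4 unit was 372 bases long, and the 120 bases shown were 98.3% identical between copies. The Muc1 unit of 60 bases gave 78.3% identity. Muc20 was searched only at a spacing of 72 bases, where its whole coding sequence was most alike to itself (33.8%). No stretch matched its neighbour at 70% or more over a whole unit at that spacing, and the best pair matched at 68.1%. Stretches at other spacings were not compared in this way. Repeats covered 38.0% of the coding bases of Muc13, 37.4% of Muc4 and 30.7% of Muc1. Serine and threonine took 30.7% of all codons in Muc13, 38.1% in Muc4, 34.9% in Muc1 and 35.2% in Muc20. Because of the repeats, 14.2% of the 50-base stretches of Muc13 and 10.1% of those of Muc4 occur more than once within the same transcript, against 1.28% for Muc1 and 0% for Muc20.

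The 4 genes lie on 2 chromosomes. Muc1 (ENSMUSG00000042784.9) spans chromosome 3, 89229057 to 89233381 in mm10, on the plus strand, and shares no exon base with another gene. Muc4 (ENSMUSG00000079620.13, chromosome 16, 32735886 to 32782391, plus strand) and Muc20 (ENSMUSG00000035638.14, 32777419 to 32797435, minus strand) run towards each other and overlap at their 3′ ends. Muc13 (ENSMUSG00000022824.12, 33794037 to 33819934, plus strand) lies 997 kb further along chromosome 16. Muc4 exons cover 9.46% of the exon bases of Muc20 on the opposite strand, and 12.1% of the 50-base stretches of Muc20 are shared with other genes, mostly Muc4. The minus-strand gene Gm15657 likewise covers 6.06% of the exon bases of Muc13. Whether the counting used the strand is not stated, so the values of Muc20, and to a smaller extent those of Muc4 and Muc13, are uncertain.

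Levels of the members differed widely per length. In EPR fl/fl, Muc13 was at 381 ± 43.1 RPKM (CPM divided by kilobases of exon, SD, n = 6), Muc4 at 16.9 ± 5.14, Muc1 at 0.261 ± 0.0432 and Muc20 at 0.0473 ± 0.0256 RPKM. Muc13 thus ranked 99th in level among the 15952 tested genes, and Muc4 3432nd. Within libraries the log2 difference in RPKM was 4.54 ± 0.43 between Muc13 and Muc4, 5.98 ± 0.28 between Muc4 and Muc1, and 2.68 ± 0.88 between Muc1 and Muc20, each with the same sign in 6 of 6 libraries (two-sided exact sign-flip permutation p = 0.0312, the smallest that 6 libraries can give). The means in EPR cKO, in the same order, were 320 ± 35.1, 10.8 ± 2.48, 0.114 ± 0.0599 and 0.0246 ± 0.0226 RPKM.

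The comparison of EPR cKO with EPR fl/fl asked whether loss of EPR changes the transcripts of the cell-surface mucins. None of the 4 genes passed the test over all genes. Mean levels of all 4 were lower in EPR cKO, at 83.9% of the control mean for Muc13, 63.8% for Muc4, 43.6% for Muc1 and 52.0% for Muc20, against 21.9% for Muc2. Of the members, 0 of 2 tested were called, where 2.46% of all tested genes were called in either direction. Muc1 and Muc20 stayed below 1 CPM in 12 of 12 libraries and were not tested in this fit. At an unadjusted p under 0.05, both tested members were lower, as were 7.12% of all tested genes. At stricter thresholds near those of the study (adjusted p under 0.001 together with its minimum fold change), 0 of the 2 tested members were called, against 0.169% of genes lower.

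**Figure D1:**
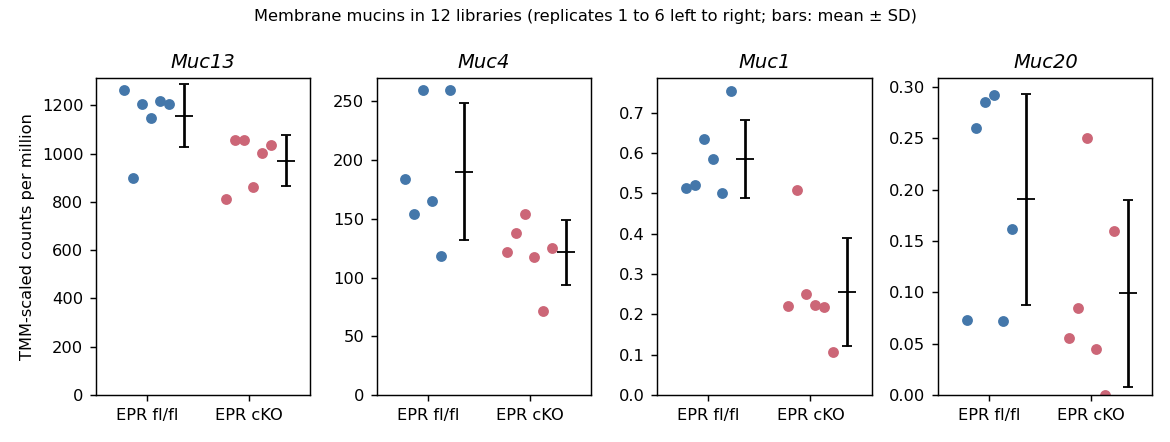
TMM-scaled CPM of Muc13, Muc4, Muc1 and Muc20 in each library (y axis, linear, with its own scale for each gene), with EPR fl/fl in blue, EPR cKO in red, replicates 1 to 6 from left to right, and mean ± SD beside them (n = 6). For each of the 4 genes the groups overlap, with 2 EPR cKO libraries below every EPR fl/fl library for Muc13, 2 for Muc4, 5 for Muc1 and 3 for Muc20.

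Muc13, a mucin with EGF-like and SEA domains that is abundant on colonocytes, was the highest and the least variable member. Controls had 901 to 1265 CPM (median 1206) and knockouts 812 to 1058 CPM (median 1018). The lowest control, EPR fl/fl 2, lay below 4 of the EPR cKO libraries, while the other 5 controls were above all 6. Means were 1156 ± 131 CPM for controls and 971 ± 107 CPM for knockouts (SD, n = 6), a log2 fold change of −0.25 (SE 0.10, 95% interval −0.47 to −0.03, adjusted p = 0.216, edgeR quasi-likelihood test). The coefficient of variation was 11.3% among controls and 11.0% among knockouts.

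Muc4, a large membrane mucin known as a partner of the receptor ErbB2, had 119 to 260 CPM among controls (median 175) and 71.1 to 154 CPM among knockouts (median 124). All 6 EPR cKO libraries lay below the control median, and 2 lay below the lowest control. Means were 190 ± 58.0 CPM for controls and 121 ± 28.0 CPM for knockouts, a log2 fold change of −0.65 (SE 0.21, 95% interval −1.10 to −0.20, adjusted p = 0.132). Muc4 was lower in all 10 alternatives with all libraries and in all 12 fits without 1 library, at −0.89 to −0.46, and had an adjusted p under 0.05 in 2 of the former and 1 of the latter. Leaving out EPR cKO 1 gave that last call (adjusted p = 0.0481), in a fit where 2273 genes were called lower and 1178 higher. In 2 further fits without EPR cKO 1, chosen after seeing the data, Muc4 was at 0.088 (SE 0.45) with a tissue composition covariate, the epithelium minus the smooth muscle marker score, and at −0.98 (SE 0.22, adjusted p = 0.00461) when scaled to epithelium markers. Muc13 was at 0.0043 (SE 0.21) and −0.54 (SE 0.11, adjusted p = 0.00262) in these fits. In the fit scaled to epithelium markers, 5684 of 15952 tested genes were called lower, and the median of all genes was at −0.32. The composition covariate did not overlap between the groups in these libraries, so composition and genotype cannot be told apart in that fit.

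**Figure D2:**
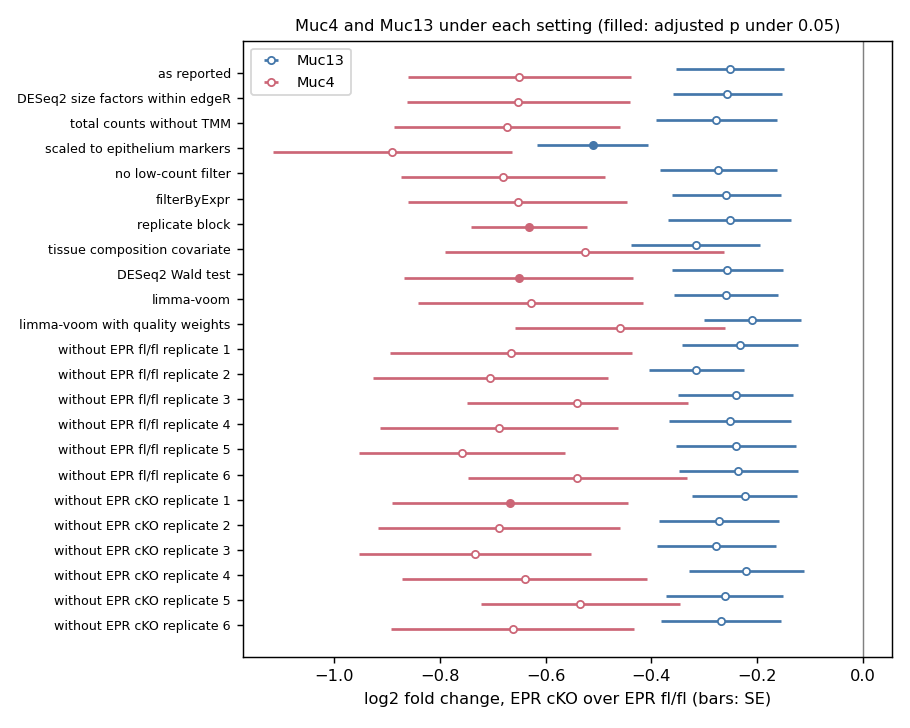
Log2 fold changes of Muc13 (blue) and Muc4 (red) on the x axis, EPR cKO over EPR fl/fl, with SE bars, under the reported fit, the 10 alternatives with all libraries and the 12 fits without 1 library (y axis). All points plotted lie below 0, and filled points mark an adjusted p under 0.05, reached by Muc4 in 3 settings and by Muc13 in 1.

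Muc1, whose cytoplasmic tail binds beta-catenin, was close to the limit of detection. The controls, replicates 1 to 6, had 7, 16, 20, 18, 7 and 14 counts. The knockouts, in the same order of numbering, had 4, 12, 5, 5, 7 and 2. In 5 of 6 EPR cKO libraries the CPM was below every control, and EPR cKO 2 lay just above the lowest control. The mean was 0.584 ± 0.0970 CPM against 0.255 ± 0.134 CPM (n = 6, two-sided exact permutation p = 0.00433, not adjusted for other genes, and 0.00216 to 0.00649 without each library in turn). With a looser filter or none, edgeR gave log2 fold changes of −1.17 (SE 0.30, adjusted p = 0.0616) and −1.19 (SE 0.35, adjusted p = 0.163), so the difference did not pass when adjusted over all genes. Single libraries carry little information here. The 12 counts of EPR cKO 2 give a Wilson 95% interval of 0.291 to 0.891 CPM, taken on all counts, and the 7 counts of EPR fl/fl 1 give 0.217 to 0.925 CPM. Such intervals cover counting error only.

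Muc20, which has been described as a partner of the receptor Met, was barely detected. The controls had 1, 8, 9, 9, 1 and 3 counts and the knockouts 1, 2, 5, 1, 0 and 3. With 0 counts, EPR cKO 5 could still hold up to 0.0903 CPM, taking 3 counts as the limit that a count of 0 allows. Control and knockout means were 0.191 ± 0.103 and 0.0991 ± 0.0911 CPM (n = 6, two-sided exact permutation p = 0.123), and a difference was not detectable at this depth. The p depended on single libraries, from 0.0476 without EPR cKO 3 to 0.242 without EPR fl/fl 4.

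The other membrane mucins of the colon were examined next. Of 8 fixed symbols, 4 were in the table and 3 were tested, with 0 called, and their log2 fold changes ran from −0.28 to 0.15. Over all tested genes, 2.46% were called in either direction. Muc3, the most abundant mucin of this list, went from 1158 ± 100 CPM among controls to 1283 ± 454 CPM among knockouts, a log2 fold change of 0.15 (SE 0.20, 95% interval −0.29 to 0.59, adjusted p = 0.710) whose direction was not stable. It was −0.06 (SE 0.26) scaled to epithelium markers, −0.03 (SE 0.17) without EPR cKO 1, 0.28 (SE 0.15) without EPR cKO 5 and 0.48 (SE 0.15, adjusted p = 0.124) with the tissue composition covariate. Its level varied widely among knockout libraries, from 667 CPM in replicate 5 to 1967 CPM in replicate 1, against 1060 to 1347 CPM among controls. Muc3a, annotated beside it, was at 45.8 ± 17.8 and 47.4 ± 20.7 CPM (log2 fold change 0.04, SE 0.32, adjusted p = 0.949). The remaining tested gene, Muc16, was at −0.28 (SE 0.63, adjusted p = 0.829).

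In contrast, both tested gel-forming mucins of 5 fell. Muc2 had 4083 to 14598 CPM among controls (median 7541) and 1073 to 2028 CPM among knockouts (median 1874), with no overlap (log2 fold change −2.19, SE 0.27, adjusted p = 0.000741). Of all tested genes, 1.47% had all EPR cKO libraries below all controls. Muc5b, secreted by airway and salivary glands and present here at a low level, fell from 7.30 ± 3.68 to 1.48 ± 0.591 CPM (−2.30, SE 0.34, adjusted p = 0.00289). Muc2 was among the genes that the study had reported on, so its direction is no independent finding.

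**Figure D3:**
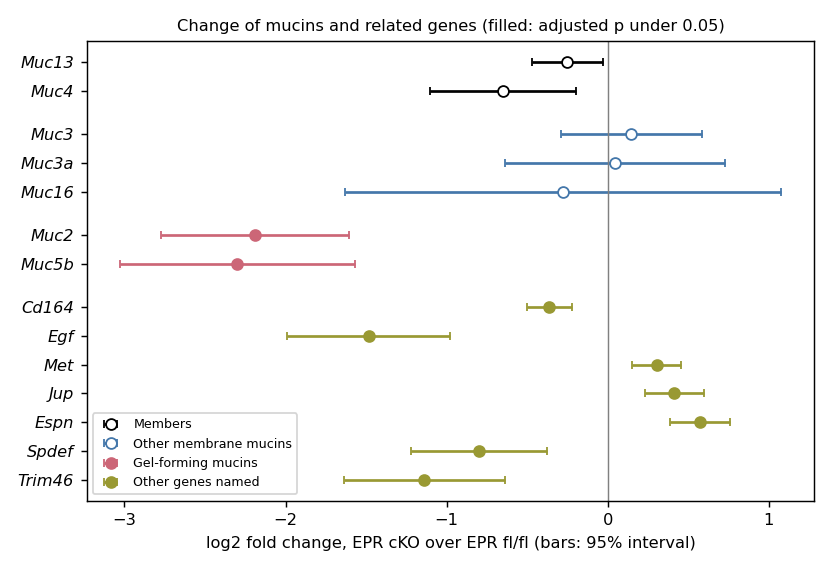
Log2 fold changes, EPR cKO over EPR fl/fl, with 95% intervals (x axis), for the tested members, other mucins and other genes named in the text (y axis). Muc13 and Muc4 sit at −0.25 and −0.65 as open points (adjusted p of 0.05 or more), the 3 other membrane mucins span 0, and Muc2 and Muc5b lie at −2.19 and −2.30 as filled points (adjusted p under 0.05).

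Whether the membrane mucins moved less than Muc2 was tested by their log2 ratio to Muc2 within each library. Muc2 alone separated the groups (difference in mean log2 CPM −2.11, two-sided exact permutation p = 0.00216). A gene that hardly changed would also shift in its ratio, so these tests bear only on whether a member fell less than Muc2. The share of all tested genes with such a shift was not computed. The ratio of Muc13 to Muc2 was −3.60 to −1.75 among controls and −1.28 to −0.10 among knockouts, without overlap. Its mean differed by 1.86, a 3.63-fold shift towards Muc13 (two-sided exact permutation p = 0.00216, the smallest possible with 924 assignments, adjusted p = 0.00722 over 10 ratios). For Muc4 the ratio went from −5.34 ± 0.49 to −3.87 ± 0.15, again without overlap, a difference of 1.48 or 2.79-fold (exact p = 0.00216, adjusted p = 0.00722). The spread of the Muc4 to Muc2 ratio in EPR cKO was small, from −4.01 to −3.62. Muc1 (difference 1.07, exact permutation adjusted p = 0.0260) and Muc20 (1.49, adjusted p = 0.00722) also shifted relative to Muc2, but with a prior count of 0.5 in place of 2 their adjusted p-values were 0.108 and 0.112.

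**Figure D4:**
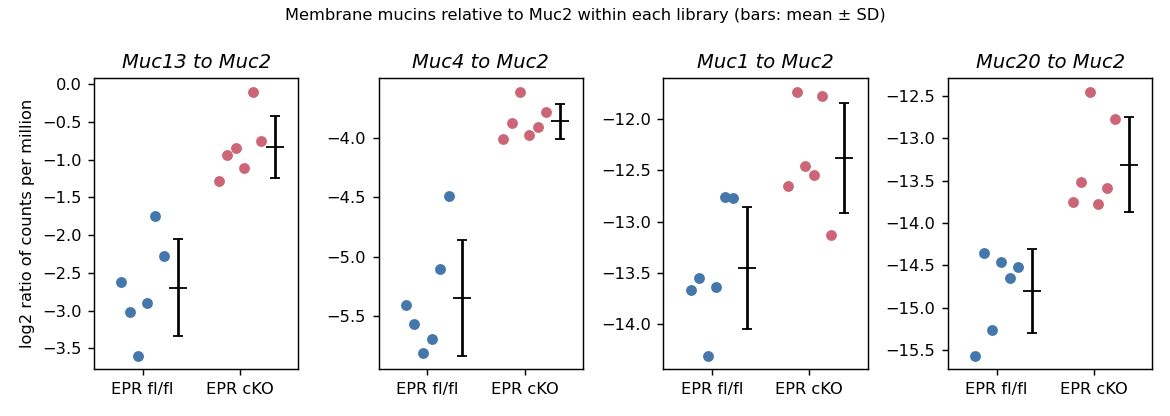
Log2 ratio of each membrane mucin to Muc2 within each library (y axis, log2 scale, own range for each gene), EPR fl/fl in blue and EPR cKO in red, with mean ± SD (n = 6). For Muc13, Muc4 and Muc20 every EPR cKO library lies above every EPR fl/fl library, while the groups overlap for Muc1. Muc2 alone separates the groups, which enters every panel. Muc20 rests on 0 to 9 counts per library, and its exact permutation adjusted p was 0.112 with a prior count of 0.5 in place of 2.

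The members were also compared with each other. Of the 6 ratios between members, 1 differed between the groups: the log2 ratio of Muc1 to Muc13 was lower by a mean of 0.79 in EPR cKO (−10.75 ± 0.23 against −11.54 ± 0.52, exact permutation adjusted p = 0.0162). The ratio of Muc4 to Muc13 differed by −0.38 (adjusted p = 0.220), so a larger change of Muc4 than of Muc13 was not shown. For the other 4 ratios the adjusted p ran from 0.220 to 0.970.

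Across libraries of the same group, Muc4 and Muc13 did not track each other detectably. Over the 6 EPR fl/fl libraries, Pearson r was 0.28 (exact permutation p = 0.607) and Spearman rho 0.14 (exact p = 0.803), with r = 0.03 after the 2 libraries farthest from the median of Muc4 were left out. Over the 6 EPR cKO libraries, r was 0.12 (exact permutation p = 0.872), rho 0.77 (exact p = 0.103), and r without the 2 farthest 0.77. Muc2 and Muc4 gave r = 0.93 in EPR cKO (exact permutation p = 0.0569, rho 0.60 with exact p = 0.242), but r was 0.11 without the 2 libraries farthest from the median of Muc2. The farthest was EPR cKO 5, with 1073 CPM of Muc2 against 1735 to 2028 CPM in the other knockouts, and also the lowest Muc4 (71.1 CPM). None of 10 such relations passed after adjustment (exact permutation, lowest adjusted p = 0.167). The lowest was for Muc13 and the mean log2 CPM of epithelium markers in EPR cKO (r = 0.90, exact permutation p = 0.0167, rho 0.71 with exact p = 0.136). Without the 2 libraries farthest from the median of these markers, r was −0.07.

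The genes whose pattern was most like that of a member were ranked by Pearson r of log2 CPM after the group means were removed, over 12 libraries, as a description with no test. For Muc4 these were Madd (r = 0.93), Itpr2 (0.93) and Myo1d (0.92). For Muc13 they were Hps6 (0.90), Gcnt1 (0.89), which encodes a core 2 O-glycan branching enzyme, and Slc44a4 (0.89). None of these 6 was called between the groups, and the lowest adjusted p was 0.483, for Myo1d, an unconventional myosin. For the low members the ranking rests on few reads, and gave Gpr157 (0.87), Xylt2 (0.84) and Zfp90 (0.84) for Muc1, and Nup188 (0.90), Arfgef2 (0.89) and Cdh24 (0.86) for Muc20. The points share library depth and tissue content.

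Genes next to the members were read from the count table. Trim46, which ends 0.796 kb from Muc1 on the opposite strand, fell from 3.57 ± 0.843 to 1.63 ± 0.501 CPM (log2 fold change −1.14, SE 0.23, adjusted p = 0.0219), without overlap between the groups. Thbs3, 2.22 kb to the other side of Muc1, was at −0.51 (SE 0.34, adjusted p = 0.448). Beside Muc4 and Muc20, Tnk2 was at 0.23 (SE 0.07, adjusted p = 0.118) and Rubcn at −0.06 (SE 0.07, adjusted p = 0.645). Beside Muc13, Heg1 was at −0.55 (SE 0.31, adjusted p = 0.357) and Itgb5 at −0.05 (SE 0.14, adjusted p = 0.855).

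Other membrane proteins with mucin-like domains were mostly at lower values, although few were called. Of 12 tested, 11 were lower and 1 was called, with a median log2 fold change of −0.40 against 0.02 over all tested genes. Of all tested genes, 47.2% were lower and 1.57% were called lower. Cd164, the sialomucin endolyn, fell from 307 ± 19.4 to 239 ± 13.8 CPM (−0.36, SE 0.06, adjusted p = 0.00972) without overlap. Cdhr5, a mucin-like protocadherin of the brush border, was at 0.11 (SE 0.08, 95% interval −0.05 to 0.28, adjusted p = 0.438). Several genes of this list mark cells outside the epithelium, and all 5 endothelium markers were also at lower values, with a median of −0.42 and summed levels of 50.1 to 66.4 CPM among controls and 24.3 to 84.7 CPM among knockouts. The part of these cells in the list's values was not tested.

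Receptors, ligands and tail partners of the membrane mucins included 20 tested genes of 23, with 1 called lower and 2 higher, and a median of 0.22. Over all tested genes, 1.57% were called lower and 0.884% higher, with a median of 0.02. Egf, a ligand of the ErbB family for which the study also listed PCR primers, fell from 7.93 ± 2.78 to 2.83 ± 0.542 CPM (−1.48, SE 0.23, adjusted p = 0.00470). Met, the hepatocyte growth factor receptor, rose from 75.9 ± 6.88 to 93.6 ± 5.97 CPM (0.30, SE 0.07, adjusted p = 0.0412). Jup, the junctional protein plakoglobin, rose from 206 ± 15.5 to 274 ± 30.9 CPM (0.41, SE 0.08, adjusted p = 0.0219). Erbb2, the receptor linked to Muc4, was at 0.16 (SE 0.11, 95% interval −0.08 to 0.39, adjusted p = 0.459).

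Enzymes that shed or cleave membrane mucins gave 0 calls among 14 tested (median 0.04), with Mep1a, a meprin subunit, at 0.06 (adjusted p = 0.774) and St14, matriptase, at 0.28 (adjusted p = 0.247). Over all tested genes, 2.46% were called in either direction, and the counts of the next 2 lists are to be read beside that share. In the apical scaffold that carries microvilli, 1 of 16 tested genes was called: Espn, the actin bundler espin, rose from 47.1 ± 5.41 to 70.0 ± 5.89 CPM (0.57, SE 0.09, adjusted p = 0.00343). Cdhr2, another brush border protocadherin, was at 0.05 (adjusted p = 0.775), and Vil1, the microvillus actin-binding protein villin, at 0.25 (adjusted p = 0.276). Among 26 tested regulators of mucin genes, 1 was called, Spdef, a goblet cell transcription factor (−0.80, SE 0.19, adjusted p = 0.0497), while Hnf4a (0.32, adjusted p = 0.0856) and Klf4 (0.23, adjusted p = 0.319) were not.

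Because membrane mucins are made by epithelial cells, epithelial content was set beside them. All 11 epithelium markers were at higher values in EPR cKO, with 0 called and a median of 0.25, and summed levels of 7624 to 11376 CPM among controls and 8757 to 13751 CPM among knockouts. Their mean log2 CPM was 9.11 ± 0.13 and 9.36 ± 0.22 (exact permutation p = 0.0476, adjusted p = 0.107 over 9 lists). When libraries were scaled to these markers, the median of all genes moved to −0.22, Muc13 was at −0.51 (SE 0.11, adjusted p = 0.0229), or −0.29 relative to that median, and Muc4 at −0.89 (SE 0.23, adjusted p = 0.0600), or −0.67 relative to it. All 8 goblet cell markers were at lower values and 5 were called (Tff3, Clca1, Zg16, Atoh1 and Spdef), with a median of −0.80. Of all tested genes, 47.2% were at lower values and 1.57% were called lower. The study had reported lower Clca1, Fcgbp and Agr2 from this RNA-Seq, so the fall of the goblet list is no independent finding. Tff3 was at −0.53 here in whole tissue (adjusted p = 0.0170), while the study's qRT-PCR on isolated crypts gave similar Tff3 in both groups. Of 9 colonocyte markers, 8 were at higher values and 0 were called, with a median of 0.44.

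The mean log2 CPM of the other marker lists was compared in the same way, with exact permutation p-values adjusted over 9 lists. It was lower by 0.84 in EPR cKO for goblet cell markers (adjusted p = 0.0195) and higher by 0.33 for colonocyte markers (adjusted p = 0.0455). Adipocyte markers were lower by 1.99 (adjusted p = 0.0455), with summed levels of 364 to 1225 CPM among controls and 25.7 to 850 CPM among knockouts, although 0 of 5 were called singly. The other 5 lists (smooth muscle, fibroblast, endothelium, immune, and enteric neuron and glia) had lower means in EPR cKO and adjusted p-values of 0.133 to 0.294. The part of these shifts in the values of Muc4 and Muc13 was not tested beyond the fits with scaling to epithelium markers and with the composition covariate. Under that covariate, with all 12 libraries, Muc4 was at −0.53 (SE 0.26) and Muc13 at −0.32 (SE 0.12).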

How the data were processed

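Per the labels, each library was 1 mouse, and groups and replicate numbers came from the sample titles. The authors trimmed paired reads, aligned them to mm10 with STAR 2.5.3a and counted them per Ensembl gene with featureCounts in R 3.5.1. The deposited values were raw counts, with a summed exon length per gene, and 0 count columns lacked a sample. Strand use in counting and multi-mapping reads are not given in the sources used here.

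Genes with at least 1 CPM in at least 4 libraries were tested in R 4.3.3 with edgeR 4.0.16 (TMM, quasi-likelihood F test, Benjamini-Hochberg over all tested genes), and SE was |log2 fold change| divided by the square root of F. Single values were compared by two-sided exact permutation over libraries in Python 3.11.15, on CPM for Muc1 and Muc20 (added because the filter left them out) and on log2 CPM with a prior count of 2 for ratios. Alternatives used DESeq2 1.42.0, limma 3.58.1, other scalings, filters and covariates. The edgeR fit and the permutation test were tested on simulated data. The members, gene lists and tests were chosen with earlier results of these data known. Genes named were the members, EPR, Muc2, each list's called genes and, where under 2 were called, its 2 most abundant (not done for cell type markers), the nearest tested neighbours, and the 3 tested genes most correlated with each member. Muc16, Erbb2 and the mucin genes too low to test were named after their values were seen. No library was left out.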

Additional observations from a re-analysis of the deposited data

Results flagged for a closer look

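In 56 sets of 6 values from 1 group each (mucin CPM, ratios and marker scores), 6 values, from 5 libraries, lay farther from the rest than Dixon's 95% critical value allows, where chance gives about 2.8. EPR fl/fl 2 had 901 CPM of Muc13, against 1145 to 1265 CPM in the other 5 controls. EPR cKO 2 had 0.509 CPM of Muc1, from 12 counts, against 0.106 to 0.251 CPM in the other EPR cKO libraries. EPR cKO 5 had the lowest Muc2, 1073 CPM against 1735 to 2028 CPM, and the lowest log2 ratio of Muc4 to Muc13, −3.82 against −3.04 to −2.73. EPR cKO 1, the library highest in smooth muscle genes, had 52.9 CPM of Muc16 against 3.57 to 21.4 CPM. EPR fl/fl 3 had 14.5 CPM of Muc5b against 4.36 to 7.60 CPM, and this library also had the highest Muc2.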

How the results depend on the processing

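Muc4 and Muc13 were at lower values in the 10 alternatives with all libraries. Muc4 passed an adjusted p of 0.05 with the replicate block (−0.63, SE 0.11, adjusted p = 0.0335) and the DESeq2 Wald test (−0.65, 0.0471), and Muc13 when scaled to epithelium markers (−0.51, 0.0229). Muc4 adjusted p-values ran from 0.0335 to 0.376 and those of Muc13 from 0.0229 to 0.407. Without 1 library, Muc4 ran from −0.76 to −0.53 and Muc13 from −0.32 to −0.22. The labels do not say whether the replicate numbers pair the libraries, and their correlations do not settle it. Same-numbered libraries correlated from −0.24 to 0.34 and 2 of 6 pairs exceeded 0.1, and 2 of 6 controls matched best with their own number. The block lowered the calls to 178 lower and 67 higher.

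Settings added after seeing the data left out EPR cKO 1. Scaled to epithelium markers, Muc4 was then at −0.98 and Muc13 at −0.54, with 5684 genes called lower and 86 higher. With the tissue composition covariate (epithelium minus smooth muscle mean log2 CPM), which does not overlap between the groups in those libraries, Muc4 was at 0.088 (SE 0.45) and Muc13 at 0.0043 (SE 0.21), with 4 and 0 calls, so composition and genotype cannot be told apart there.

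Counts of called genes without 1 library ran from 145 to 2273 lower and from 28 to 1178 higher, with the highest of both without EPR cKO 1 and the lowest without EPR fl/fl 4 and EPR cKO 3. Lower and higher calls were 473 and 440 with DESeq2, and 1891 and 1372 with limma-voom with quality weights. Higher calls were 39 with total counts, 12 scaled to epithelium markers, 54 without a filter and 83 with the composition covariate. With a prior count of 0.5, the ratio differences to Muc2 were 0.87 for Muc1 and 1.07 for Muc20, and that of Muc4 to Muc20 turned from −0.01 to 0.41. Not divided by length, Muc13 exceeded Muc4 by a log2 value of 2.65 and Muc4 exceeded Muc1 by 8.31. Muc1 had a value only with no filter or with filterByExpr, and Muc20 only with no filter (−1.15, adjusted p = 0.530), none of them called. The causes were not tested.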

Other observations

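Some mucin genes were present in the table and too low to test. Muc15, a membrane mucin, had 0 counts in 12 libraries, which allows up to 0.0903 to 0.229 CPM per library. Over all 12 libraries together, Muc6 had 93 counts, Muc5ac 50 and Muc19 5, all of them gel-forming mucins. The symbols Muc12, Muc17, Muc21 and Muc22 were looked up and had no row of that name. Whether any of these genes is in the table under another symbol was not checked.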
